A study of Mus musculus with 25 samples.

Results

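Cell-cycle exit genes are described here by where Spin1 and H3K4me3 lay at them in primary myoblasts. They are 10 genes, Cdkn1a, Cdkn1b, Cdkn1c, Cdkn2a, Cdkn2b, Cdkn2c, Rb1, Ccnd1, Ccnd2 and Ccnd3, of 26180 genes with a curated RefSeq transcript. They were chosen by name as regulators of cell-cycle exit, and the peaks were not part of that rule. Earlier results of these data were known when the choice was made. Their curated transcripts start at 14 separate promoters, since Cdkn1a, Cdkn2a, Cdkn2c and Ccnd3 each have 2. Promoters were numbered in the direction of transcription, and TSSs of a gene within 500 bp were taken as 1 promoter. A promoter was occupied when a peak overlapped TSS±1 kb by at least 1 bp.

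Primary myoblasts are muscle precursor cells kept in culture. Those studied were grown from limb muscle of 10-day-old C57BL/6 mice (C57BL/6 N in the study's methods), for which the labels name no engineered allele. Fibroblasts were reduced by preplating, which lets them attach to a dish before the myoblasts do. The cultures were fixed before they were confluent, and no differentiation step is described for them. ChIP-seq was done with a custom Spin1 antibody and with an antibody to H3K4me3, 1 library each, and peaks were called against input DNA from the same kind of cells. The antibody label of the H3K4me3 library reads H3K4me, whereas its title and the study's methods name H3K4me3. How many animals were pooled is not given in the sources used here.

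Withdrawal from the cell cycle in muscle precursors is controlled at the retinoblastoma protein, which is encoded by Rb1. D cyclins activate Cdk4 and Cdk6, which phosphorylate the retinoblastoma protein and free E2F factors to turn on S phase genes. INK4 proteins block Cdk4 and Cdk6, and CIP/KIP proteins mainly block Cdk2 complexes, so both families hold the retinoblastoma protein in its E2F-binding form. Spin1 is a reader protein whose Tudor-like domains bind histone H3 trimethylated at lysine 4, a mark of active or poised promoters. A peak says where a protein or mark was found on chromatin, and it is not a level of RNA.

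Cdkn2a and Ccnd3 had promoters with separate peaks, whereas those of Cdkn1a shared a single H3K4me3 peak and a Spin1 peak lying between them. The sequence before each TSS of Cdkn1a, Cdkn2a and Ccnd3 is shown here because Spin1 differed between promoters of the same gene. It differed by presence at Cdkn2a and Ccnd3 and by score and width at Cdkn1a. Each stretch holds the 200 bases before the TSS, is read 5′ to 3′ on the gene's own strand, and comes from GRCm38, where no annotated exon overlaps it. Capitals mark every GC box (GGGCGG on either strand), E-box (CANNTG) and E2F-type site (TTTCCCGC, TTTGGCGC, TTTCGCGC or TTTGCCGC on either strand).
Cdkn2a promoter 1, p19Arf, chr4:89294620-89294819, minus strand: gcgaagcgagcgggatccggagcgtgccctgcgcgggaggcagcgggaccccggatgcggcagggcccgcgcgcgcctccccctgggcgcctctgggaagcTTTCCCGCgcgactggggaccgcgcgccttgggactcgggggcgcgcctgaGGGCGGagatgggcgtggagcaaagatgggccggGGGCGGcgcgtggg
Cdkn2a promoter 2, p16Ink4a, chr4:89282193-89282392, minus strand: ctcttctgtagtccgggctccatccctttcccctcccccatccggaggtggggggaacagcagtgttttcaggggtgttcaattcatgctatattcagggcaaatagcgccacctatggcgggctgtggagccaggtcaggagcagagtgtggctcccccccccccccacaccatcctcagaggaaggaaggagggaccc
Ccnd3 promoter 1, chr17:47504851-47505050, plus strand: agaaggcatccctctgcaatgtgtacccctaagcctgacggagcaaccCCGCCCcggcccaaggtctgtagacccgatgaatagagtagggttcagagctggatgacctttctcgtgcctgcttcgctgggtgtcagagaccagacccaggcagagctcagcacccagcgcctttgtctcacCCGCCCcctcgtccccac
Ccnd3 promoter 2, chr17:47593267-47593466, plus strand: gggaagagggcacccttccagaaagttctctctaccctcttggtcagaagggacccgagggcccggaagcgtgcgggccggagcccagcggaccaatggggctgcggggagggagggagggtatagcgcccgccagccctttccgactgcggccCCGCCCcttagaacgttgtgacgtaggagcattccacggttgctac
Cdkn1a promoter 1, chr17:29090779-29090978, plus strand: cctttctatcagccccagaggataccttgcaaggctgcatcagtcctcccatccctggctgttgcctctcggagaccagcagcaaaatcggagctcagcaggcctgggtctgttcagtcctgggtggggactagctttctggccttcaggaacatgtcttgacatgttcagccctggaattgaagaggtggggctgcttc
Cdkn1a promoter 2, chr17:29093569-29093768, plus strand: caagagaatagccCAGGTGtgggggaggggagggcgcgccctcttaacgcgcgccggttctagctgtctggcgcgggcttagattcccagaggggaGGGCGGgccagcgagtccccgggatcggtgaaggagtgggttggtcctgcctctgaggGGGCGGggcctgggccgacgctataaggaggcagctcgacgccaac
Before the p19Arf TSS, 2 GC boxes, 1 E2F-type site and 30 CpG dinucleotides were found, whereas the p16Ink4a stretch held none of these motifs and 4 CpG dinucleotides. Both Ccnd3 stretches held GC boxes, 2 at promoter 1 and 1 at promoter 2, with 9 and 15 CpG dinucleotides. Promoter 1 of Cdkn1a held none of the motifs and 2 CpG dinucleotides, and promoter 2 held 2 GC boxes, 1 E-box and 17 CpG dinucleotides. These counts depend on the window. In the longer window of the motif counts below, p19Arf had 3 GC boxes, p16Ink4a 1 and each Ccnd3 promoter 2. A match is a match of letters and does not show that a factor was bound.

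All 10 genes had a Spin1 peak and an H3K4me3 peak at a promoter. Among all genes, Spin1 was found at a promoter of 50.7% (13267 of 26180; 95% Wilson interval from 50.1 to 51.3%), H3K4me3 at 61.9% (61.3 to 62.5%), and both at 50.6%. These intervals cover counting error only, and with 1 library per antibody there is no replicate error to set beside any value. By promoter, H3K4me3 was present at 14 of 14 and Spin1 at 12 of 14, against 60.9% and 48.8% of 29494 promoters of all genes. The promoters without Spin1 were promoter 2 of Cdkn2a and promoter 1 of Ccnd3, which thus carried H3K4me3 alone, as did 12.2% of all promoters. The 10 genes are all protein-coding, and among protein-coding genes the shares with Spin1 and H3K4me3 were 56.7% and 68.0%. These shares are a background to the counts and not a test of them.

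Each peak carries a MACS score, equal to −log10 of its p-value over the input multiplied by 10. Scores pile up at 3100, and peaks at that score have no order among themselves. The highest Spin1 score at a promoter was 3100 for 8 of the 10 genes, against a score of at least 3100 for 49.1% of all genes with a Spin1 promoter peak. The 2 genes below it were Cdkn2b with 1415 and Cdkn1c with 131. For H3K4me3, 10 of 10 genes reached 3100, as did 88.3% of all genes with an H3K4me3 promoter peak. A Spin1 score below 3100 therefore went with an H3K4me3 score of 3100 at Cdkn1c and Cdkn2b. Among genes with a Spin1 promoter peak, 2.89% had a lower highest score than Cdkn1c and 27.4% than Cdkn2b.

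**Figure D1:**
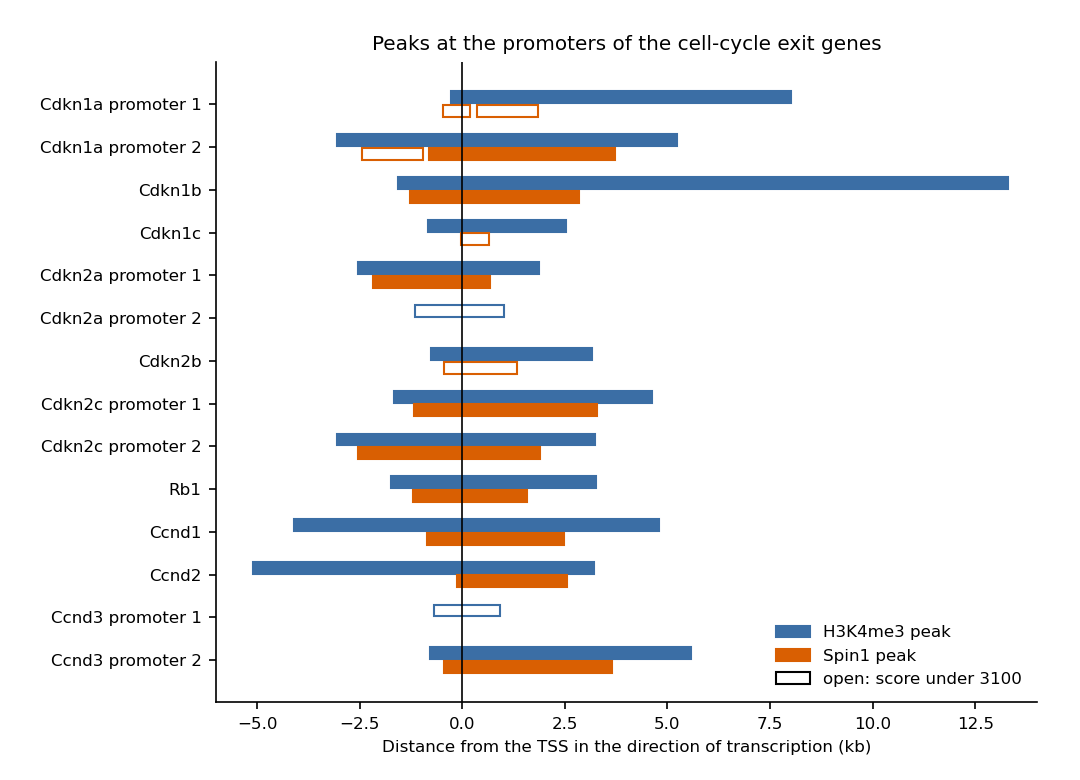
Extent of every Spin1 peak (orange) and H3K4me3 peak (blue) at the 14 promoters, by distance from the TSS in kb in the direction of transcription; open bars have a score under 3100. H3K4me3 spans every TSS, and the bar of Spin1 is missing at Cdkn2a promoter 2 and Ccnd3 promoter 1.

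The CIP/KIP family holds 3 genes, and Cdkn1a encodes p21, the inhibitor that p53 induces and that rises when myoblasts differentiate. Cdkn1a lies on chromosome 17 from 29090979 to 29100722 on the plus strand, and its TSSs are 2790 bp apart, at 29090979 and 29093769. Both transcripts encode the same length of protein, 159 amino acids. A single H3K4me3 peak of 8282 bp (29090716-29098997, score 3100) covered both TSSs and 2 of the 3 exons, or 82.3% of the gene. Spin1 in this domain was split into 3 peaks.
The first Spin1 peak, of 658 bp with a score of 111, reached from 465 bp upstream to 192 bp downstream of the TSS of promoter 1. The second, of 1494 bp with a score of 425, lay in the intron between the promoters and held neither TSS. The third, of 4544 bp with a score of 3100, reached from 813 bp upstream to 3730 bp downstream of promoter 2. Spin1 was thus wider and had the higher score at promoter 2, the TSS of the RefSeq Select transcript. Another Spin1 peak of 716 bp (score 78.2, 29099212-29099927) lay in the last exon outside any H3K4me3 peak.

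Cdkn1b encodes p27, which holds quiescent cells out of S phase. It lies on chromosome 6 from 134920401 to 134925525 on the plus strand, has 3 exons and encodes 197 amino acids. Its Spin1 peak of 4120 bp (134919134-134923253, score 3100) reached from 1267 bp upstream to 2852 bp downstream of the TSS and touched 2 of the 3 exons. The H3K4me3 peak was 14857 bp wide (134918841-134933697, score 3100), the widest at any of the 10 genes, and covered 100% of the gene. It ran on to the TSS of Lockd, a long noncoding RNA that starts 8691 bp downstream of the Cdkn1b TSS and had Spin1 peaks of its own. With Lockd, 3 Spin1 peaks together covered 54.5% of this H3K4me3 domain. A separate H3K4me3 peak with a score of 3100 and no Spin1 lay upstream (134916225-134917862, 1638 bp), in no annotated gene, from position -4176 to -2539 relative to the TSS.

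Cdkn1c encodes p57, the third CIP/KIP inhibitor, which acts together with p21 in skeletal muscle and is an imprinted gene expressed from the maternal allele. It lies on chromosome 7 from 143458339 to 143461059 on the minus strand, with 3 curated transcripts that share the TSS at 143461050. Of the widest and the highest-scoring Spin1 promoter peak of each gene, those of Cdkn1c were the narrowest and the lowest. It was 696 bp wide with a score of 131 (143460393-143461088), from 38 bp upstream to 657 bp downstream of the TSS, and 2.27% of genes with a Spin1 promoter peak had a narrower widest peak. The H3K4me3 peak of 3364 bp had a score of 3100 and touched all 4 exons, and Spin1 covered 20.7% of it. The peaks do not separate the alleles, so it is unknown which allele carried them. No other Spin1 peak was called within 50 kb, and Phlda2, an imprinted neighbour whose TSS is 41474 bp away, had H3K4me3 without Spin1.

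The INK4 genes bind Cdk4 and Cdk6, and Cdkn2a is unusual among them because its 2 promoters make unrelated proteins. Promoter 1 starts the transcript of p19Arf (169 amino acids), which frees p53 from Mdm2, and promoter 2 that of p16Ink4a (168 amino acids), an INK4 inhibitor. The TSSs, at 89294619 and 89282192 on the minus strand of chromosome 4, are 12427 bp apart, and the transcripts share 320 coding bp (89276666-89276985) in different reading frames. Occupancy differed between them. At promoter 1, a Spin1 peak of 2854 bp (89293945-89296798, score 3100) lay wholly inside an H3K4me3 peak of 4392 bp (89292757-89297148, score 3100). At promoter 2, an H3K4me3 peak of 2157 bp (89281177-89283333, score 2173) held the TSS with no Spin1 peak. The nearest Spin1 peak was that of promoter 1, whose edge lay 11753 bp away.
At promoter 1 both peaks reached farther upstream than downstream, by 2179 against 674 bp for Spin1 and 2529 against 1862 bp for H3K4me3. On the upstream side lies Gm12610, a long noncoding RNA gene on the other strand with its TSS 561 bp away, and both peaks are shared with its promoter. Spin1 found there cannot be assigned to 1 of the genes. Farther along Cdkn2a, 2 H3K4me3 peaks without Spin1 lay away from the promoters, 1 of 550 bp over the shared coding exon (score 56.2) and 1 of 2415 bp at the 3′ end (score 895).

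Cdkn2b encodes p15Ink4b and lies beside Cdkn2a, from 89306289 to 89311032, with a TSS at 89311032 that is 16413 bp from that of p19Arf. Its Spin1 peak of 1766 bp (89309705-89311470) had a score of 1415 and reached from 438 bp upstream to 1327 bp downstream of the TSS. The H3K4me3 peak of 3916 bp (89307878-89311793) had a score of 3100, and Spin1 covered 45.1% of it. Over the cluster, Spin1 was thus found at the p15Ink4b and p19Arf promoters and not called at the p16Ink4a promoter between p19Arf and the shared exons. Whether p16Ink4a had Spin1 below the calling threshold cannot be read from a list of peaks.

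**Figure D2:**
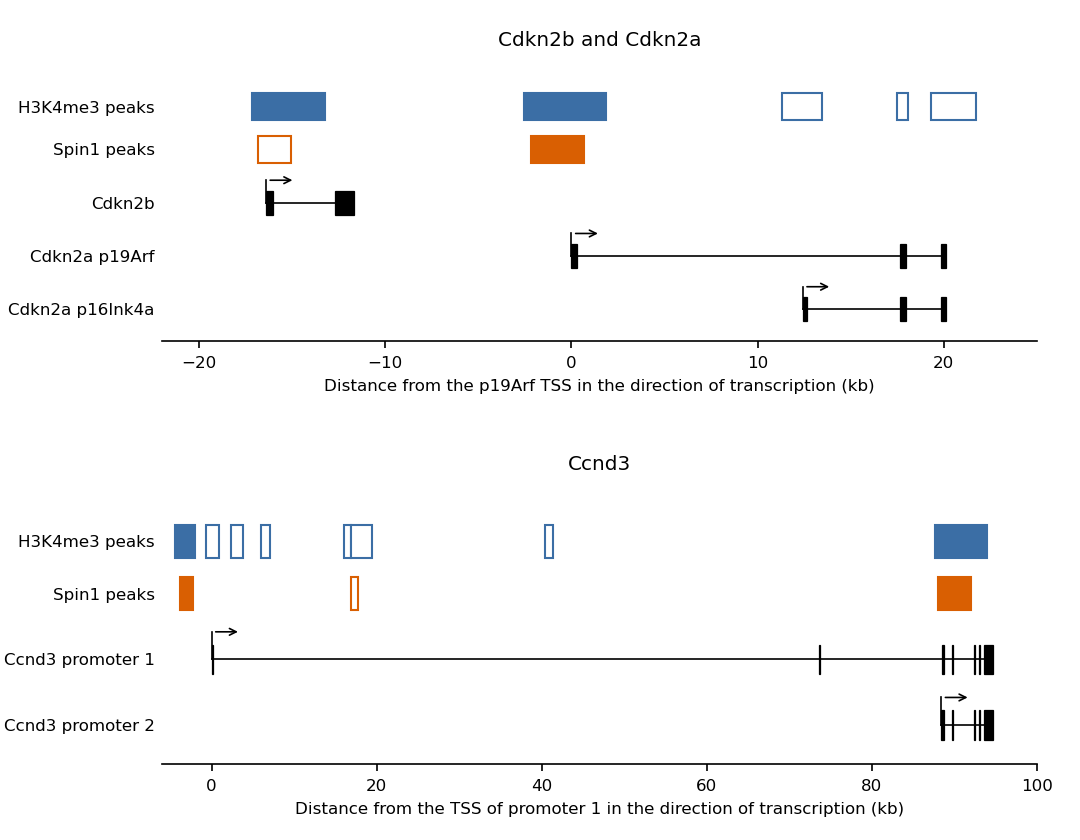
Gene models and peaks at Cdkn2b with Cdkn2a (top) and at Ccnd3 (bottom), by distance in kb from the first TSS of Cdkn2a or Ccnd3; bent arrows mark TSSs, black boxes exons, and open bars peaks with a score under 3100. The H3K4me3 bars over the p16Ink4a TSS and over promoter 1 of Ccnd3 have no Spin1 bar beneath them.

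Cdkn2c encodes p18Ink4c, the INK4 inhibitor with a known role in muscle cell cycle exit. It lies on chromosome 4 from 109660876 to 109666756 on the minus strand, and its TSSs, 1384 bp apart at 109666756 and 109665372, lead to the same length of protein, 168 amino acids. A Spin1 peak of 4448 bp (109663474-109667921) and an H3K4me3 peak of 6275 bp (109662143-109668417), both with a score of 3100, held both TSSs. The promoters of Cdkn2c can therefore not be told apart by peaks, in contrast to those of Cdkn2a. No peak away from a promoter was called within 50 kb of Cdkn2c on either list.

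Rb1 encodes the retinoblastoma protein (921 amino acids) in 27 exons on chromosome 14, from 73192858 to 73325951 on the minus strand, with the TSS at 73325822. A Spin1 peak of 2778 bp (73324253-73327030) lay inside an H3K4me3 peak of 4988 bp (73322560-73327547), both with a score of 3100, and each touched the first exon and no other. Spin1 covered 1.28% of the gene, and the single H3K4me3 peak in the body that lay away from all promoters was narrow (835 bp, score 103) and touched no Spin1 peak. Other peaks inside Rb1 belonged to Lpar6, a receptor gene on the opposite strand within Rb1, with Spin1 of 2896 bp and H3K4me3 of 4589 bp.

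D cyclins carry the growth signal to Cdk4 and Cdk6. Ccnd1 lies on chromosome 7 from 144929931 to 144939831 on the minus strand and encodes cyclin D1, which falls when myoblasts exit the cycle. The H3K4me3 peak at Ccnd1 was 8901 bp wide (144935036-144943936, score 3100) and reached 4105 bp upstream and 4795 bp downstream of the TSS. Within it lay a Spin1 peak of 3339 bp over the TSS (144937363-144940701, score 3100) and 2 lower Spin1 peaks upstream, of 993 bp (score 332) and 680 bp (score 104). The nearer of these ended at position -1027 relative to the TSS and so lay just outside the promoter window, while the second Cdkn1a peak ended at position -946 relative to promoter 2, just inside it.

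Ccnd2 encodes cyclin D2, lies on chromosome 6 from 127125162 to 127152188 on the minus strand and starts at 127151048. The Spin1 peak of 2664 bp (127148507-127151170, score 3100) lay almost wholly downstream, with 122 bp before and 2541 bp after the TSS. The H3K4me3 peak of 8313 bp (127147837-127156149, score 3100) reached the other way, 5101 bp upstream and 3211 bp downstream. Its upstream part held another Spin1 peak of 903 bp with a score of 206. The long noncoding RNA 9330179D12Rik starts 1659 bp downstream of the Ccnd2 TSS on the opposite strand, runs through this upstream part, and shares both promoter peaks with Ccnd2.

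Ccnd3 encodes cyclin D3, which stays high in differentiated muscle where it is bound to the retinoblastoma protein. It spans chromosome 17 from 47505051 to 47599689 on the plus strand, and its TSSs, at 47505051 and 47593467, are 88416 bp apart. The curated transcripts of both promoters encode 292 amino acids, so the choice of promoter changes the start of the RNA and not the length of the protein. Promoter 2 carried a Spin1 peak of 4101 bp (47593028-47597128) inside an H3K4me3 peak of 6366 bp (47592688-47599053), both with a score of 3100. Promoter 1 carried H3K4me3 of 1591 bp (47504371-47505961, score 2764) and no Spin1.
The nearest Spin1 peak to promoter 1, at a distance of 2197 bp, covered the TSS of Taf8, a TFIID subunit gene that starts 2760 bp away and is read in the other direction. Spin1 at Taf8 had a score of 3100 over 1612 bp. In the long first part of Ccnd3, 5 H3K4me3 peaks with scores from 87.2 to 865 lay away from promoters, and 1 Spin1 peak of 896 bp (score 289) overlapped the widest of them, of 2565 bp.

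Among the 10 genes, Cdkn1a, Cdkn2a and Ccnd3 had curated promoters more than 2 kb apart, and 2 of the 3 had both peaks at 1 promoter and H3K4me3 alone at another. Of 1842 genes with promoters that far apart, 18.6% (342) had such a split. This distance was set after the values were seen, and 3 genes are too few to read against the background.

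Of 12 distinct Spin1 peaks at the promoters, 11 lay wholly inside an H3K4me3 peak, and the exception was the low peak at promoter 1 of Cdkn1a, of which 69.3% was covered. Of 11797 Spin1 peaks at promoters of all genes, 91.5% lay wholly inside an H3K4me3 peak, so these genes were close to the background. In the other direction, Spin1 covered between 20.7% (Cdkn1c) and 78.4% (Cdkn1a) of the widest H3K4me3 peak of each gene, with a median of 56.0%. Over the 13246 genes with both peaks the median was 66.3%, with 5th and 95th percentiles of 36.9 and 87.6%. Cdkn1c was below the 5th percentile, and the other 9 genes lay between the percentiles.

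Peaks mostly reached farther into the gene than before it. For Spin1 this was so at 9 of the 12 promoters, against 77.1% of 13519 promoters of all genes that had their TSS inside a Spin1 peak. For H3K4me3 it was so at 11 of 14, against 78.4% of 17206. The members were thus close to the background, and the exceptions for Spin1 were promoter 1 of Cdkn1a, promoter 1 of Cdkn2a and promoter 2 of Cdkn2c.

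H3K4me3 peaks at the 10 genes were wide beside those of all genes with an H3K4me3 promoter peak. Those include noncoding genes and genes without Spin1, and widths were not taken over protein-coding genes with both peaks alone. The median of the widest promoter peak of each gene was 6320.5 bp, from 3364 bp at Cdkn1c to 14857 bp at Cdkn1b, whereas it was 3253 bp over 16207 genes with an H3K4me3 promoter peak. All 10 genes were above that median, and 4, Cdkn1b, Ccnd1, Ccnd2 and Cdkn1a, were above the 95th percentile of 7167 bp. The Cdkn1b peak was wider than the widest peak of 99.7% of genes, Ccnd1 than 98.0%, Ccnd2 than 97.3% and Cdkn1a than 97.2%. The Cdkn1b and Ccnd2 peaks also cover the promoter of a neighbouring noncoding RNA, and the Cdkn1a peak covers 2 promoters of its own gene.
Spin1 peaks had a median of 3096.5 bp, from 696 bp at Cdkn1c to 4544 bp at Cdkn1a, against 2306 bp over 13267 genes. For Spin1, 8 of the 10 were above the median of all genes and 0 above the 95th percentile of 4575 bp. Cdkn1c and Cdkn2b were the 2 below it.

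**Figure D3:**
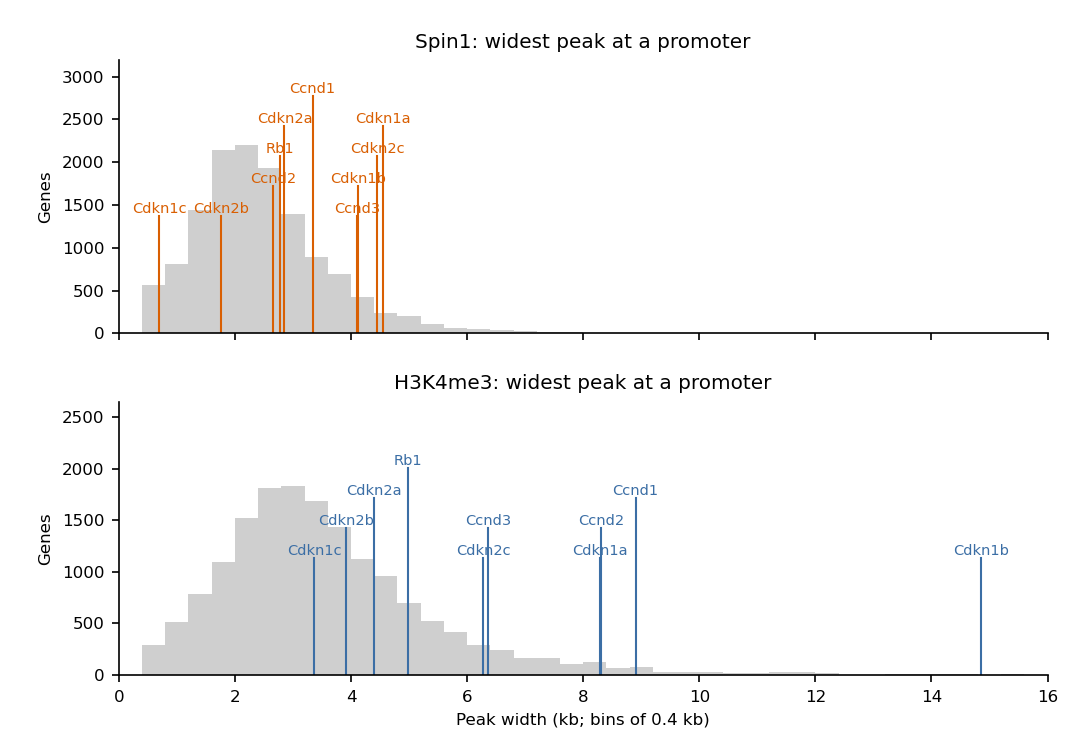
Width in kb of the widest Spin1 peak (top) and H3K4me3 peak (bottom) at a promoter, with all genes as grey bars (number of genes per bin of 0.4 kb) and the 10 genes as labelled lines. The 10 lines for H3K4me3 all lie to the right of the median of all genes, 3253 bp; 27 genes with H3K4me3 peaks of 16 kb or more are not drawn.

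CpG content was measured in TSS±0.5 kb as the observed over the expected number of CpG dinucleotides. Of the 14 promoters, 10 were listed in the RefSeq promoter table at the same place, and those of Cdkn1c, Rb1, Ccnd1 and Ccnd2 were not. The latter were left out for this reason alone, whereas the values over all promoters had no such filter. Over these 10, the ratio ran from 0.126 at promoter 1 of Cdkn1a to 0.971 at promoter 1 of Cdkn2a, with a median of 0.683, against 0.485 over all promoters. All promoters with both peaks had a median of 0.744, those with H3K4me3 alone 0.490, and those with neither 0.193. The promoters with H3K4me3 alone had 0.537 (p16Ink4a) and 0.473 (Ccnd3 promoter 1), each lower than the other promoter of the same gene, at 0.971 and 0.834. Promoter 1 of Cdkn1a, which carried both peaks with a low Spin1 score, fell below the 5th percentile of promoters with both peaks, 0.311.

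**Figure D4:**
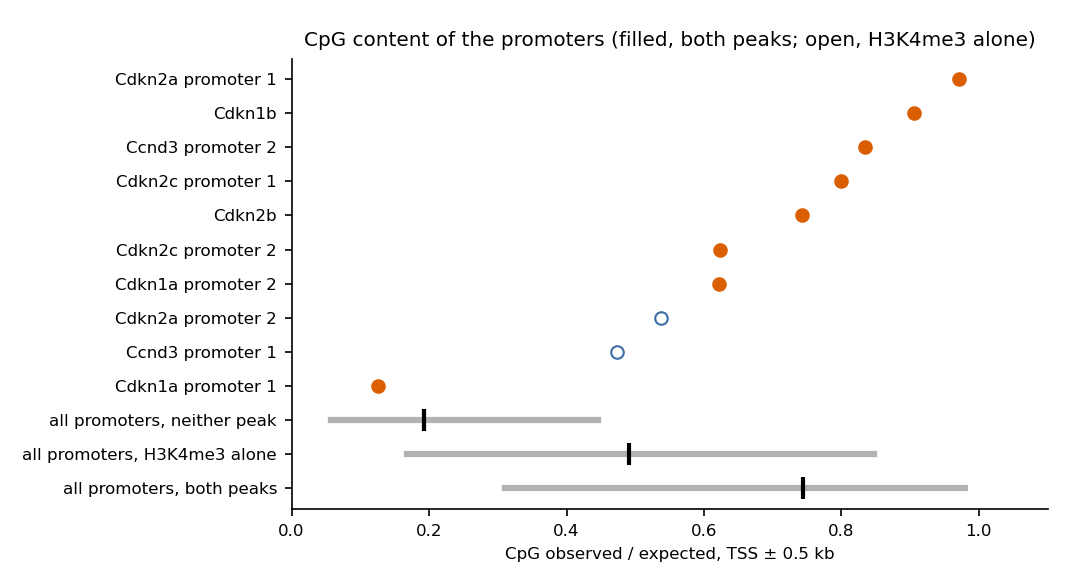
Observed over expected CpG in TSS±0.5 kb for the 10 promoters (points) and, for all promoters by their peaks, the median (black tick) and the range from the 5th to the 95th percentile (grey bar). Cdkn1a promoter 1 lies at 0.126, apart from the other 9 points, which run from 0.473 to 0.971.

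Motifs were counted from 250 bases before the TSS to 50 bases from it, on both strands. The same 10 promoters were used, beside all promoters without that filter. The latter include promoters with neither peak, and motif shares were not split by peaks as CpG content was. A GC box (GGGCGG), the site of Sp factors, was found in 8 of the 10 promoters and in 42% of all promoters. An E-box (CANNTG), bound by Myod1 and other basic helix-loop-helix factors, was found in 4 of 10 against 70.2%. Its form CAGCTG, common under Myod1, occurred in 1 of 10 against 16.1%, at promoter 1 of Cdkn1a in a part of the window that is not printed. CCAAT, the site of NF-Y, occurred in 4 of 10 against 37.7%. The cyclic AMP response element TGACGTCA occurred in 1 of 10 against 2.19%, at Cdkn2b, and an E2F-type site in 1 of 10 against 2.6%, at p19Arf. CAGCTG is also counted as an E-box. The short windows hold few letters, so the counts describe these promoters only.

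Within 50 kb of the genes, 35 distinct Spin1 peaks and 46 distinct H3K4me3 peaks were called. Of the Spin1 peaks, 12 lay at the genes' own promoters, 13 at those of other genes and 10 at no annotated promoter. Of the H3K4me3 peaks, 12 lay at own promoters, 13 at those of others and 21 at none. The peaks at no promoter were weak for Spin1, with scores from 78.2 to 401 (median 182) and widths from 680 to 1254 bp. For H3K4me3 their scores ran from 53.9 to 3100 (median 277).
Per gene, 0 to 3 such Spin1 peaks (median 0.5) and 0 to 5 such H3K4me3 peaks (median 2) were found. Over 21000 protein-coding genes the medians were 0 and 1 and the 95th percentiles 3 and 5, so none of the genes lay above those percentiles. Cdkn1a and Ccnd1 had 3 Spin1 peaks each, Ccnd2 had 2, and Cdkn2b and Ccnd3 had 1. Of the 10 Spin1 peaks, 7 overlapped H3K4me3, as did 72.6% of 5309 Spin1 peaks away from promoters in the genome. The 7 were 2 upstream of Cdkn1a, 2 upstream of Ccnd1, 1 upstream of Ccnd2, 1 in an exon of Fgf23 and 1 in the first part of Ccnd3. Those upstream of Ccnd1 and Ccnd2 lay in the H3K4me3 peak of the gene's own promoter, and the others overlapped H3K4me3 peaks at no promoter.
Fgf23 encodes a hormone that lowers blood phosphate, and the H3K4me3 peak in its exon had a score of 3100 (127079339-127081096, 1758 bp) with Spin1 at 401 inside it. Upstream of Cdkn1a, the Spin1 peaks at no promoter had scores of 209, in an exon of the long noncoding RNA gene Trp53cor1 with H3K4me3 over it, and 129, in no annotated gene.

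Of 20 genes that are not among the 10 and had a promoter peak within 50 kb, 18 had Spin1 and H3K4me3 and 2 H3K4me3 alone, Phlda2 beside Cdkn1c and Fgf15 beside Ccnd1. Genes with neither peak are left out of this count, and among all 16228 genes with a promoter peak of either kind, 81.6% had both. The count is of genes and not of separate peaks. Gm12610 and 9330179D12Rik had both through the promoter peaks of Cdkn2a and Ccnd2, and Lockd shared the H3K4me3 peak of Cdkn1b. Some neighbours also shared peaks with each other, such as Gpr19 with 2810454H06Rik. Trp53cor1, a noncoding RNA that p53 induces, starts 11853 bp from Cdkn1a and had Spin1 with a score of 771. Both peaks with scores of 3100 were found at Gpr19 and 2810454H06Rik beside Cdkn1b, at Faf1 beside Cdkn2c, at Rcbtb2 and Lpar6 at Rb1, and at Taf8, Bysl, Med20 and Gm20517 beside Ccnd3. Lower Spin1 scores were found at 9630013D21Rik beside Cdkn2c (679), at Tigar beside Ccnd2 (773), at LTO1 and Bc1 beside Ccnd1 (1848 for their shared peak) and at Usp49 beside Ccnd3 (1608).

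The rest of the pathway was read from a list of 47 genes that act with these 10, including the kinases, cyclins E, A and B, pocket proteins, E2F and DP factors, Cdkn2d and DREAM parts. All 47 had Spin1 and H3K4me3 at a promoter, against 50.6% of all genes, so no gene of the list lacked either. With the TSS inside the peak 45 kept Spin1, and with the 50% of peaks that had the highest scores 43 did. The highest Spin1 score was 3100 or more for 33 of the 47, against 49.1% of all genes with a Spin1 promoter peak. The lowest Spin1 scores were 143 at Ccna1, the germline A-type cyclin, and 258 at Cbx7, a Polycomb protein that represses Cdkn2a. The median widest peak was 4375 bp for H3K4me3 and 2780 bp for Spin1, lower than 6320.5 and 3096.5 bp for the 10 genes and higher than 3253 and 2306 bp over all genes. These 2 lowest genes were named after their values were seen.

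Promoters of marker genes were read beside the label of the cells. All 9 myoblast markers, among them Myod1, Myf5, Pax7 and Des, had both peaks. Of 8 fibroblast markers, 8 had H3K4me3 and 4 Spin1 (Pdgfra, Col1a1, Col3a1 and Tcf7l2). Of 5 endothelial markers, 3 had H3K4me3 and 0 Spin1, with neither at Pecam1, and of 5 blood markers 1 had H3K4me3 and 0 Spin1, with neither at Ptprc. Of 3 adipocyte markers 1 had both, and of 4 neural markers 4 had H3K4me3 and 2 Spin1. H3K4me3 thus lay at every fibroblast and neural marker as well, so its presence does not tell these cell types from myoblasts. Over all genes, 61.9% had H3K4me3 and 50.7% Spin1 at a promoter. The part of other cells in the peaks of the 10 genes was not tested.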

How the data were processed

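ChIP-seq peak lists of Spin1 and H3K4me3 from primary myoblasts were used, 1 library each (2 of 25 samples in the series). Libraries were amplified with 12 PCR cycles. The other 23 samples were not analysed here. Read pairs were aligned by the authors to mm10 (GRCm38) with bowtie 2. They called peaks over input with MACS 1.4.2 and kept those with a false discovery rate of at most 1%. Per the file contents, the deposited values are peak positions and a score for each peak. The score was taken as that of MACS, which is −log10 of the p-value multiplied by 10. The score grows with depth and width, and the depth is unknown since the lists hold no read counts. The Spin1 list holds 17106 peaks (lowest score 50.7, 30.9% at 3100 or more) and the H3K4me3 list 30763 (50.03 and 45.2%).

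Positions are counted from 1 and were compared with curated transcripts of RefSeq annotation release 108.20200622 on GRCm38. A promoter was TSS±1 kb, the flank 50 kb, and an overlap 1 bp. A peak was placed in an exon or intron by its centre. No test was made, since there were no replicates. Members are set beside counts and medians over all genes. The genes, the lists and the rules were chosen with earlier results of these data known, and the positions of TSSs in peaks, the share of H3K4me3 under Spin1, the background to nested peaks and to neighbours, and the 2 kb distance between promoters were added after values were seen. Named genes were the 10 members with all their peaks, the neighbours with a promoter peak, and any pathway gene without a peak. Alternatives were other windows, flanks, scores, TSS groupings and gene sets. Occupancy was tested on simulated data with 200 promoters per case. Sequences come from RefSeq GRCm38. The work used samtools 1.23.1, pysam 0.24.0, matplotlib 3.10.9, pandas 2.3.3, SciPy 1.17.1, NumPy 2.4.6 and Python 3.11.15.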

Additional observations from a re-analysis of the deposited data

How the results depend on the processing

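No paired analysis was possible because no test was made and each antibody had 1 library. Of 67 values recomputed for 14 results, 51 stayed close to the reported value (within 1.5 times for counts, within the Wilson interval for shares, no change at all for median widths) and 16 did not. The 10 genes kept both peaks with the TSS inside the peak, which entails the same under a promoter window of 0.5 kb. They also kept both under a window of 2 kb, which cannot lose a peak, and with scores of at least 100. That score limit removed no peak at their promoters, where the lowest score was 111. With the 50% of peaks that had the highest scores, 9 of 10 genes and 10 of 14 promoters kept Spin1, the losses being Cdkn1c and promoter 1 of Cdkn1a. The split of Cdkn2a and Ccnd3 was seen under every one of these settings. Of them, only the 2 kb window could have added Spin1 at the promoters that lacked it, since the others can only remove peaks. With predicted transcripts included there were 17 promoters, of which 14 had Spin1 and 17 H3K4me3.

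The share of all genes with Spin1 moved to 50.1% and 51.4% with windows of 0.5 and 2 kb, 38.1% with the higher-scoring 50% of peaks, 48.4% with the TSS inside the peak and 56.7% with protein-coding genes only. For H3K4me3 the same settings gave 61.2%, 63.0%, 56.6%, 60.0% and 68.0%, and scores of at least 100 gave 61.0%. Spin1 peaks away from promoters numbered 6 with a flank of 25 kb and 0 in the higher-scoring 50% of peaks. H3K4me3 peaks away from promoters numbered 32 with a flank of 100 kb and 3 in the higher-scoring 50%. Joining peaks less than 1 kb apart raised the median Spin1 width of the 10 genes to 3477.5 bp and left that of H3K4me3 at 6320.5 bp. With 1 library per antibody and unknown depth, a missing peak may be a peak below the calling threshold.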
